A study of Mus musculus with 16 samples.

Results

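The genes examined here encode the enzymes, transporters and regulators of glycolysis and glycogen metabolism in skeletal muscle. They were chosen as 39 gene symbols, from the glucose transporters to lactate dehydrogenase and from glycogen synthase to glycogen phosphorylase. The symbols matched 40 of the 29730 genes of the count table, because Aldoa names 2 Ensembl genes, and all 40 were among the 14960 genes left by a filter on low counts. Transcripts of the tibialis anterior, a fast-twitch muscle of the lower leg, had been sequenced in 16 male C57BL/6N mice aged 7 weeks. The 4 groups of 4 mice were wild type given phosphate-buffered saline (WT_PBS), wild type given the antisense oligonucleotide ASO1 (WT_ASO), Bin1mck-/- mice given saline (KO_PBS) and Bin1mck-/- mice given ASO1 (KO_ASO). ASO1 is directed against Dnm2, which encodes dynamin 2, a GTPase that cuts membranes, and Bin1 encodes amphiphysin 2, a membrane-curving protein of the T-tubules. Loss of BIN1 function is a cause of centronuclear myopathy, and the series compared the 4 groups to see how muscle transcripts respond to lowering Dnm2. Which promoter drives the deletion, and how much ASO1 was given and when, is not stated in the sources used here.

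Fast muscle fibres store glucose as glycogen and break it down during contraction. Glycogen phosphorylase, switched on by phosphorylase kinase, releases glucose 1-phosphate, which phosphoglucomutase passes into glycolysis, and lactate dehydrogenase turns the pyruvate formed at the end into lactate. Glucose enters from the blood through the transporters GLUT4 and GLUT1 and is trapped by hexokinase. Many steps have a muscle isozyme, such as Pfkm, Pgam2, Eno3 and Pygm, beside isozymes that are more abundant in other tissues or cell types.

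Libraries held 27591900 to 40862854 counts. Values are CPM, that is, counts scaled to a common library size (by the TMM method), as mean ± SD over 4 mice. The targeted genes were low where the labels say: Bin1 averaged 494.7, 539.0, 44.9 and 35.5 CPM, and Dnm2 56.1, 25.6, 62.8 and 24.8 CPM, in WT_PBS, WT_ASO, KO_PBS and KO_ASO. Muscle markers were abundant in every library, the 6 myofibre markers summing to between 81170 and 125700 CPM. The 9 macrophage markers summed to 46.2 to 74.6 CPM in WT_PBS, 47.8 to 102.3 CPM in WT_ASO, 118.7 to 355.5 CPM in KO_PBS and 48.8 to 74.9 CPM in KO_ASO. All 9 were higher in KO_PBS than in WT_PBS at an adjusted P value under 0.05, against 7.43% of all genes tested. Of the 9, 7 were lower in KO_ASO than in KO_PBS, against 2.83%. Of the KO_PBS libraries, replicate 1 had the lowest sum of glycolysis and glycogen genes and replicate 4 the highest sum of macrophage markers. In whole muscle, fewer fibres of a type and less RNA per fibre cannot be told apart.

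Levels of different genes were compared only as CPM per kilobase of transcript. In WT_PBS the highest were Aldoa (fructose-bisphosphate aldolase A) with 10830, Eno3 (muscle enolase) with 5520, Pygm (muscle glycogen phosphorylase) with 3108, Pgam2 (muscle phosphoglycerate mutase) with 2789 and Pfkm (muscle phosphofructokinase) with 2418 CPM per kb. Ldha (lactate dehydrogenase A), Tpi1 (triosephosphate isomerase), Pkm (pyruvate kinase) and Pgm1 (phosphoglucomutase 1) followed with 1398, 1242, 909 and 492 CPM per kb. At the lower end were the glucose transporter gene Slc2a1 with 1.75, the liver phosphorylase Pygl with 0.4497 and the brain aldolase Aldoc with 0.169 CPM per kb. Some neighbours in this order lay within their SDs of each other, as did Pygm and Pgam2 (SDs of 310.1 and 216.5 CPM per kb), while Aldoa and Eno3 were apart from each other and from Pygm (1004 and 402.6 CPM per kb).

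Gapdh (glyceraldehyde-3-phosphate dehydrogenase) and Pgk1 (phosphoglycerate kinase), enzymes that lie between aldolase and enolase in the same pathway, were listed at only 16.4 and 17.2 CPM per kb. Of the 50-base words of the Gapdh transcript, 82.5% also occurred in a transcript of another gene, among them 213 pseudogenes. The share was 72.2% for Eno1 (the widespread enolase), 68.0% for Pgk1, 41.5% for Pgam1 (the widespread phosphoglycerate mutase), 34.4% for Pkm, 27.0% for Ldhb (lactate dehydrogenase B), 25.3% for Gpi1 (glucose-6-phosphate isomerase) and 25.0% for Phkg1 (the catalytic subunit of muscle phosphorylase kinase). It was 17.1% for Ldha, 13.5% for Aldoa and 7.51% for Tpi1, and 0% for Pfkm, Pgam2, Eno3 and Fbp2 (muscle fructose-1,6-bisphosphatase). How reads that fit several genes were counted is not known from the sources, so the levels of the genes with large shares are uncertain. Genes on the other strand with at least 10 counts on average overlap Pfkm, Pfkp, Aldoa, Tpi1, Gapdh, Phkg1, Gys1, Pgm1 and Pfkfb1, and Gm49759 overlaps Pkm on its own strand.

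**Figure D1:**
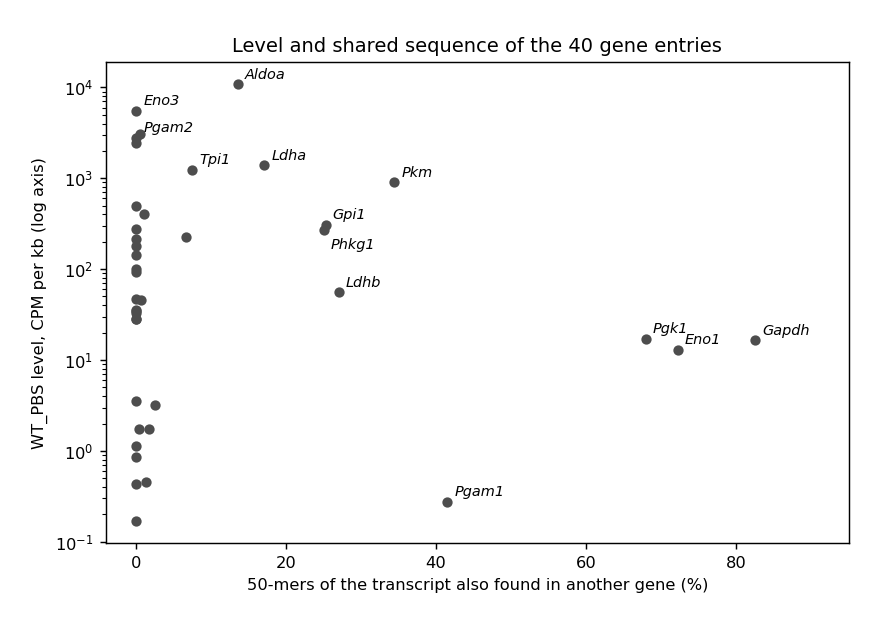
Each point is 1 of the 40 gene entries: the x axis gives the percentage of the 50-base words of its transcript that also occur in another gene, and the y axis its mean level in the 4 WT_PBS mice as CPM per kilobase on a log axis. Gapdh, Eno1 and Pgk1 lie at the right, with shares of 82.5%, 72.2% and 68.0% and levels under 20 CPM per kb, while Aldoa and Eno3 stand at the top with 10830 and 5520 CPM per kb.

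The comparison of KO_PBS with WT_PBS asked which of these genes differ in muscle without Bin1. Of the 40 entries, 15 were differentially expressed genes (DEGs), that is, had an adjusted P value under 0.05 in edgeR's quasi-likelihood test over all 14960 genes, against 12.6% of all genes tested. Of these, 13 were lower in KO_PBS, against 5.12% of all genes, and 2 were higher, against 7.43%. The lower genes were Fbp2, Phka1, Pygm, Pgm1, Pfkfb1, Phkb, Phkg1, Pkm, Ldha, Pfkm, Tpi1, Eno3 and Slc2a4, and the higher genes were Slc2a1 and Hk1. In 16 of the 40 every KO_PBS library lay below every WT_PBS library, which held for 9.85% of all genes, and in 1, Slc2a1, every KO_PBS library lay above, which held for 10.5%. An unadjusted P value under 0.05 was reached by 23 of the 40, against 27.3% of all genes. The median log2 fold change (log2FC) was -0.30 over the 40 entries and -0.01 over all genes. Of the whole count, the 40 entries together took 5.81% ± 0.265 in WT_PBS, 6.23% ± 0.649 in WT_ASO, 4.60% ± 0.328 in KO_PBS and 5.15% ± 0.267 in KO_ASO (SD, n = 4 each). The lowest WT_PBS share, 5.44%, was above the highest KO_PBS share, 4.89%. With library totals alone as the scale, the median of all genes moved to 0.14 and Slc2a4 lost its call. At that scale 12 of the 40 were lower and 2 higher, where 14.7% of all genes were called in either direction.

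**Figure D2:**
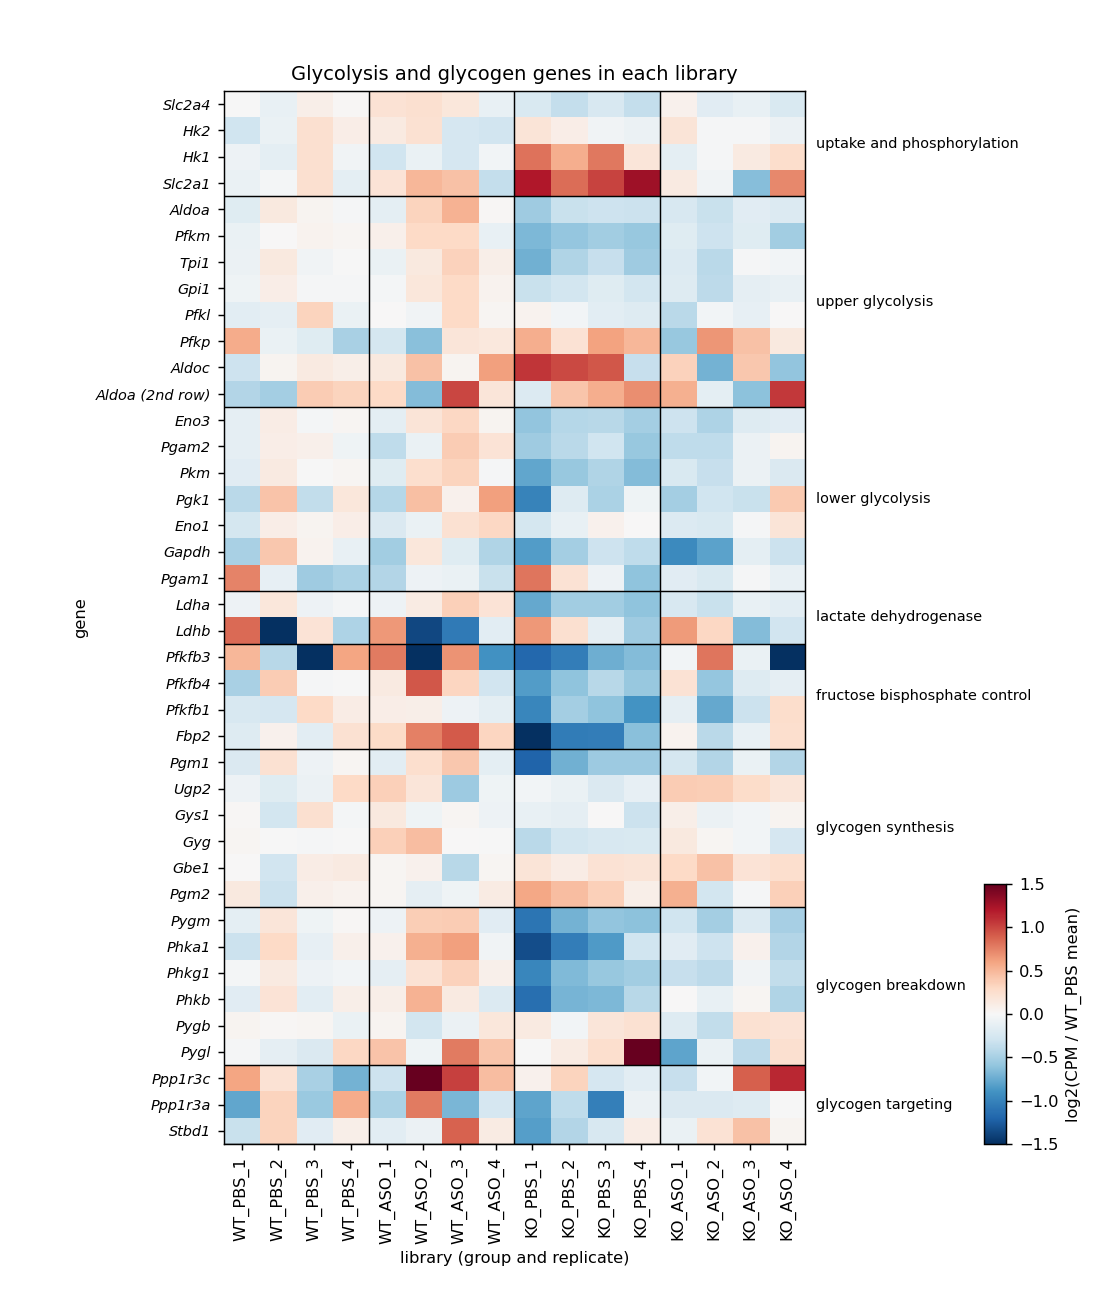
Each row is a gene entry and each column a library, grouped by role and by group of mice. Colour gives the log2 ratio of its CPM to the WT_PBS mean of that gene, blue lower and red higher, and ratios beyond 1.5 in size have the end colour. The KO_PBS columns are blue in most rows of glycolysis and glycogen breakdown and red in Hk1 and Slc2a1, and Ldhb, Pfkfb3 and Ppp1r3c vary from library to library within a group.

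Sequence around the start site is shown for the 4 genes that were DEGs both in KO_PBS vs WT_PBS and in KO_ASO vs KO_PBS, since they moved in opposite directions: Fbp2 and Ldha lower and Slc2a1 and Hk1 higher in KO_PBS. The windows are from RefSeq on GRCm38.p6 and run from 250 bases before to 50 bases after a start, 300 bases each. They are Fbp2 (chr13:62858351-62858650, minus strand), Ldha (chr7:46845554-46845853, plus strand), Slc2a1 (chr4:119108495-119108794, plus strand) and Hk1 (chr10:62379859-62380158, minus strand). Ldha and Hk1 have 2 windows each, of which the one nearest to the gene's own start is shown. Capitals mark TATAAA, the E-box CANNTG, and ACGTG and GCGTG, the core letters read by hypoxia-inducible factors, on either strand. CACGTG holds both an E-box and ACGTG.
Fbp2: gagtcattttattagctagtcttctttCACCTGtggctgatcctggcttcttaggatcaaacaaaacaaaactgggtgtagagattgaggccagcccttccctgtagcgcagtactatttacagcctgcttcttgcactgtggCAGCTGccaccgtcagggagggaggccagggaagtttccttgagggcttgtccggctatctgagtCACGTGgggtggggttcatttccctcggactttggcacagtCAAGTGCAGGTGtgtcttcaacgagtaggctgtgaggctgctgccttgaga
Ldha: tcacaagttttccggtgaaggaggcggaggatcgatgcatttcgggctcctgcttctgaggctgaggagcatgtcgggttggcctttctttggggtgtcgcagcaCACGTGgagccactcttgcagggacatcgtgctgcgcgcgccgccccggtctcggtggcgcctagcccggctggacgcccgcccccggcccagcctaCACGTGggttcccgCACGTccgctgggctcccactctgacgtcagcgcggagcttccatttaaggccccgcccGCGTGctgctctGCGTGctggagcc
Slc2a1: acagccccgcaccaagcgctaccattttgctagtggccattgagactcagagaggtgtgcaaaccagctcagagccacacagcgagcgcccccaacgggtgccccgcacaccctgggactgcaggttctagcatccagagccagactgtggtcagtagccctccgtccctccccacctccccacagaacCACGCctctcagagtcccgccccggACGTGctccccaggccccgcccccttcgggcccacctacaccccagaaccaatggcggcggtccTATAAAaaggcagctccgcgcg
Hk1: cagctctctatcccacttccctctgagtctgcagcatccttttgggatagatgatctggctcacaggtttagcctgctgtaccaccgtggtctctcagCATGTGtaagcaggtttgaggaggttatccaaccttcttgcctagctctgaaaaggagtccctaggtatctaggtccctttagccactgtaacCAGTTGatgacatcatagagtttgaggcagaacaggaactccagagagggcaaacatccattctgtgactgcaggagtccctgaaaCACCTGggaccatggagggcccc
Windows were found for 38 of the 39 symbols. An E-box occurred in 11 of the 12 lower genes with a window and in 16 of the 24 entries that were not DEGs, and in 72.3% of all 32851 windows of the same length. ACGTG occurred in 5 of the 12 and 12 of the 24, and in 19.6% of all windows, and GCGTG in 6 and 14, and in 32.4%. TATAAA occurred in 1 of the 12 and 1 of the 24, and in 13.6%. The letters TCAGGTT, which begin the MEF3 site of muscle promoters, were in 0 of the 12, 1 of the 24 and 4.07% of all windows, and the MEF2 consensus was in 0 of the 12, 2 of the 24 and 3.19%. These are matches of letters in 1 window a gene and were not compared by a test.

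The transporters and hexokinases differed in direction. Slc2a4 encodes GLUT4, the insulin-responsive glucose transporter of muscle, and measured 689, 637, 734 and 698 CPM in WT_PBS, 799, 818, 775 and 636 in WT_ASO, 586, 539, 583 and 539 in KO_PBS and 723, 613, 638 and 590.1 in KO_ASO. Every KO_PBS library was below every WT_PBS library, and KO_PBS held 81.5% of the WT_PBS level (log2FC -0.30 ± 0.09 SE, adjusted P value = 0.0448). This call was lost without any 1 of 9 libraries, with adjusted P values of 0.0618 to 0.112 (WT_PBS replicates 1, 3 and 4, each KO_PBS replicate, and KO_ASO replicates 2 and 3). It was also lost without a filter on low counts (adjusted P value = 0.0779) and with library totals alone as the scale (adjusted P value = 0.278). Slc2a1 (ENSMUSG00000028645, chr4:119108711-119137983, plus strand, GRCm38) encodes GLUT1, the transporter of many cell types, and measured 5.32, 5.59, 6.77 and 5.17 CPM in WT_PBS, 6.58, 8.07, 7.74 and 4.45 in WT_ASO, 13.1, 10.2, 11.5 and 13.8 in KO_PBS and 6.25, 5.497, 3.67 and 9.41 in KO_ASO. The KO_PBS libraries were above the others, and KO_ASO was spread widely with replicate 3 lowest and replicate 4 highest. It rose in KO_PBS (log2FC 1.09 ± 0.23 SE, adjusted P value = 0.00566) and fell in KO_ASO relative to KO_PBS (log2FC -0.97 ± 0.23 SE, adjusted P value = 0.0302). The latter call was lost without any 1 of KO_PBS replicates 1 and 4 and KO_ASO replicates 1, 2 and 3 (adjusted P values of 0.0686 to 0.0844), and with the compared groups fitted alone (0.0735). Per kilobase, Slc2a1 made up 0.637% ± 0.0658 of the 2 transporters in WT_PBS, 1.65% ± 0.225 in KO_PBS and 0.754% ± 0.329 in KO_ASO (SD, n = 4 each), so that Slc2a4 made up more than 98% in every library.

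Hk1 (ENSMUSG00000037012, chr10:62268855-62379908, minus strand, GRCm38), the widespread hexokinase, measured 13.04, 12.4, 16.2 and 13.2 CPM in WT_PBS, 11.2, 12.8, 11.5 and 13.4 in WT_ASO, 24.1, 19.97, 23.8 and 15.6 in KO_PBS and 12.4, 13.6, 15.1 and 16.4 in KO_ASO. Replicate 4 of KO_PBS was within the WT_PBS range and the other KO_PBS libraries were above it. Hk1 rose in KO_PBS (log2FC 0.61 ± 0.13 SE, adjusted P value = 0.00745) and fell in KO_ASO relative to KO_PBS (log2FC -0.54 ± 0.13 SE, adjusted P value = 0.0358). The fall was not called without any 1 of KO_PBS replicates 1, 2 and 3 and KO_ASO replicates 1, 2 and 3 (adjusted P values of 0.0514 to 0.129), nor with the compared groups fitted alone (0.0995). Hk2, the main hexokinase of insulin-sensitive muscle, measured 447, 514, 651 and 591 CPM in WT_PBS, 606, 646, 463 and 452 in WT_ASO, 628, 591, 532 and 518 in KO_PBS and 629, 542, 546 and 516 in KO_ASO. The groups overlapped and Hk2 did not pass the test (log2FC 0.04 ± 0.13 SE, adjusted P value = 0.873, 95% interval of the log2FC -0.22 to 0.30). Hk1 made up 3.13% ± 0.349 of the 2 hexokinases per kilobase in WT_PBS and 4.52% ± 0.736 in KO_PBS. Slc2a1 and Hk1 shared their high KO_PBS level with the macrophage markers, but in KO_PBS replicate 4, where those markers were highest at 355.5 CPM, Slc2a1 was highest (13.8 CPM) and Hk1 lowest (15.6 CPM). The part of macrophages in either value was not tested. The KO_PBS vs WT_PBS calls of both genes were kept without any 1 library.

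In upper glycolysis 2 of 8 entries were lower in KO_PBS and none was higher. Pfkm (ENSMUSG00000033065, chr15:98092589-98132451, plus strand, GRCm38) encodes muscle phosphofructokinase, the main point of control of glycolysis, and measured 6496, 7007, 7225 and 7116 CPM in WT_PBS, 7358, 8547, 8569 and 6431 in WT_ASO, 4360, 4663, 4866 and 4694 in KO_PBS and 6117, 5624, 6142 and 4849 in KO_ASO. No KO_PBS library overlapped WT_PBS, and the level fell to 66.7% (log2FC -0.58 ± 0.11 SE, adjusted P value = 0.0021). Pfkl and Pfkp, the liver and platelet isozymes, did not pass the test (13.3 ± 2.28 and 12.6 ± 0.964 CPM, and 7.47 ± 2.45 and 10.4 ± 1.16 CPM, in WT_PBS and KO_PBS). Pfkm thus made up 99.82% ± 0.0239 of the 3 isozymes per kilobase in WT_PBS and 99.72% ± 0.0288 in KO_PBS, and the KO_PBS shares were all lower. Senp1 overlaps Pfkm on the other strand, and whether the counting used the strand is not known from the sources.

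Tpi1, which interconverts the triose phosphates, measured 1874, 2202, 1921 and 1988 CPM in WT_PBS, 1867, 2208, 2536 and 2120 in WT_ASO, 1207, 1458, 1569 and 1380 in KO_PBS and 1732, 1512, 1969 and 1942 in KO_ASO. Its KO_PBS libraries were below the WT_PBS libraries and it fell to 70.3% (log2FC -0.51 ± 0.12 SE, adjusted P value = 0.00861). Aldoa measured 14820, 18550, 17220 and 16510 CPM in WT_PBS, 15130, 21140, 24080 and 17000 in WT_ASO, 11590, 13270, 13490 and 13380 in KO_PBS and 14160, 13330, 14920 and 14590 in KO_ASO. Although every KO_PBS library was below every WT_PBS library, Aldoa did not pass the test (log2FC -0.38 ± 0.13 SE, adjusted P value = 0.0667). It was called with DESeq2, limma-voom and a block for replicate number (adjusted P values of 0.0254, 0.0293 and 0.0383), and without WT_ASO replicate 1 or 3 (0.0401 and 0.0365). The other Ensembl gene named Aldoa (ENSMUSG00000114515), which lies beside it on the same strand, averaged 0.318 ± 0.104 CPM in WT_PBS and did not pass the test. Gpi1 averaged 890.4 ± 43.9 CPM in WT_PBS and 740.2 ± 34.4 CPM in KO_PBS without overlap (log2FC -0.27 ± 0.09 SE, adjusted P value = 0.0585), and was called with DESeq2, limma-voom and the block (0.015, 0.0272 and 0.0479) and without WT_ASO replicate 3 (0.0442). Aldoc stayed under 1 CPM in every library (log2FC 0.75 ± 0.32 SE, adjusted P value = 0.141), and was called higher in KO_PBS without KO_PBS replicate 4 (adjusted P value = 0.0363).

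In lower glycolysis 2 of 7 genes, Eno3 and Pkm, were lower in KO_PBS. Eno3 measured 7854, 9353, 8486 and 8838 CPM in WT_PBS, 7777, 9906, 10750 and 8867 in WT_ASO, 5706, 6440, 6459 and 6050 in KO_PBS and 6958, 6268, 7557 and 7675 in KO_ASO. It fell to 71.4% in KO_PBS (log2FC -0.49 ± 0.11 SE, adjusted P value = 0.00812), and these 2 groups did not overlap. Pkm, the source of the muscle pyruvate kinase, measured 1963, 2435, 2194 and 2250 CPM in WT_PBS, 1947, 2633, 2789 and 2176 in WT_ASO, 1290, 1492, 1620 and 1413 in KO_PBS and 1893, 1740, 2080 and 1901 in KO_ASO. It fell to 65.8% (log2FC -0.60 ± 0.12 SE, adjusted P value = 0.00316), and again no library of KO_PBS reached the WT_PBS range. Pgam2 averaged 2343 ± 182 CPM in WT_PBS and 1718 ± 153 CPM in KO_PBS without overlap and missed the threshold (log2FC -0.45 ± 0.14 SE, adjusted P value = 0.0543), but was called in 5 of the 8 other fits (DESeq2, limma-voom, no filter, the compared groups alone and the block, adjusted P values of 0.0209 to 0.0433) and without WT_ASO replicate 1 or 3 or KO_ASO replicate 4 (0.028 to 0.0451). Eno1 averaged 26.3 ± 3.03 and 25 ± 2.42 CPM, and its share of the 2 enolases per kilobase was 0.234% ± 0.0147 and 0.312% ± 0.0222, without overlap.

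Gapdh, often taken as a reference gene, measured 16.7, 30.9, 24.1 and 21.7 CPM in WT_PBS, 16.2, 26.4, 20.5 and 17.01 in WT_ASO, 13.1, 16.4, 18.9 and 17.9 in KO_PBS and 12, 13.3, 21.1 and 18.7 in KO_ASO. The groups overlapped and the test was not passed (log2FC -0.49 ± 0.21 SE, adjusted P value = 0.14). Pgk1 averaged 31.3 ± 8.996 CPM in WT_PBS and 23.9 ± 6.31 CPM in KO_PBS, with overlap (log2FC -0.39 ± 0.27 SE, adjusted P value = 0.387). It was called lower in KO_PBS with a block for replicate number (log2FC -0.39 ± 0.12 SE, adjusted P value = 0.047). Pgam1 averaged 0.488 ± 0.226 and 0.551 ± 0.226 CPM in WT_PBS and KO_PBS, also with overlap. Gapdh, Pgk1 and Pgam1 share large parts of their transcript words with other genes, as described above, and Pgam1 had few counts, 16.4 on average per library.

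Of the lactate dehydrogenases, Ldha passed the test and Ldhb did not, and the difference between their changes was not tested. Ldha (ENSMUSG00000063229, chr7:46841475-46855627, plus strand, GRCm38), the form that prevails in fast fibres, measured 2347, 2768, 2341 and 2421 CPM in WT_PBS, 2343, 2691, 3161 and 2840 in WT_ASO, 1450, 1724, 1721 and 1629 in KO_PBS and 2086, 1951, 2288 and 2217 in KO_ASO. KO_PBS lay below every other group, and KO_ASO lay between KO_PBS and WT_PBS without overlapping either. Ldha fell to 66.1% in KO_PBS (log2FC -0.60 ± 0.10 SE, adjusted P value = 0.00136) and rose in KO_ASO relative to KO_PBS (log2FC 0.39 ± 0.10 SE, adjusted P value = 0.0452). The second call was lost without any 1 of 12 libraries, with adjusted P values from 0.0508 (without WT_ASO replicate 2) to 0.172 (without KO_PBS replicate 1); it was kept only without WT_PBS replicate 2 or WT_ASO replicate 1, 3 or 4. It was also lost with library totals alone (0.0792), without a filter on low counts (0.054) and with the compared groups fitted alone (0.061, each an adjusted P value). Ldhb, the form of heart and slow fibres, measured 132, 22.8, 84.1 and 52.6 CPM in WT_PBS, 114, 28.1, 34.8 and 65.3 in WT_ASO, 114, 86.1, 66.2 and 50.1 in KO_PBS and 113, 89.96, 46.3 and 59.6 in KO_ASO. Its 4 values spanned more than 2-fold within each group and the groups overlapped (log2FC 0.12 ± 0.52 SE, adjusted P value = 0.911). The 8 slow fibre markers summed to 350.8, 164.0, 252.8 and 222.0 CPM in WT_PBS replicates 1 to 4, and the highest and lowest Ldhb values of that group were in the same libraries as the highest and lowest of these sums. The highest values of both were also in 1 library in each of the other groups, and so were the lowest in KO_PBS and KO_ASO, but in WT_ASO the lowest sum was in replicate 3 (144.2 CPM) and the lowest Ldhb value in replicate 2 (28.1 CPM).

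Fbp2 (ENSMUSG00000021456, chr13:62836877-62858422, minus strand, GRCm38) had the largest decrease of the 40. It encodes the muscle fructose-1,6-bisphosphatase, which opposes phosphofructokinase and serves the making of glycogen from lactate. It measured 33.95, 40.6, 34.7 and 45.5 CPM in WT_PBS, 47.03, 65.2, 73.2 and 48.2 in WT_ASO, 13.8, 18.7, 18.9 and 25.1 in KO_PBS and 39.97, 29.3, 35.7 and 46.2 in KO_ASO. The WT_ASO libraries were the highest, above every WT_PBS library, the KO_PBS libraries the lowest, and KO_ASO overlapped WT_PBS. Fbp2 fell to 49.4% in KO_PBS (log2FC -1.02 ± 0.19 SE, adjusted P value = 0.00248) and rose in KO_ASO relative to KO_PBS (log2FC 0.98 ± 0.19 SE, adjusted P value = 0.00931). Both calls were kept under all 24 alternatives tried, which were 8 other fits and the omission of each of the 16 libraries.

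The 3 Pfkfb genes encode bifunctional enzymes that make and degrade fructose 2,6-bisphosphate, an activator of phosphofructokinase. Pfkfb1 measured 74.5, 74.3, 109 and 95.5 CPM in WT_PBS, 94.7, 93.6, 83.8 and 79.8 in WT_ASO, 44.9, 61.99, 57.98 and 47.6 in KO_PBS and 80.1, 51.8, 70.4 and 106 in KO_ASO. It fell to 60.2% in KO_PBS without overlap (log2FC -0.73 ± 0.18 SE, adjusted P value = 0.0151), and the adjusted P value was 0.0611 without KO_PBS replicate 1. Pfkfb4 averaged 99 ± 23.96 CPM in WT_PBS and 65.4 ± 7.62 CPM in KO_PBS (log2FC -0.60 ± 0.23 SE, adjusted P value = 0.104), and was called with the compared groups alone (0.0398) and without WT_ASO replicate 2 (0.049). Pfkfb3 was the most variable, running from 73.8 to 332.5 CPM in WT_PBS, 68.4 to 379.6 CPM in WT_ASO, 97.98 to 140.9 CPM in KO_PBS and 19.5 to 386.4 CPM in KO_ASO (log2FC -0.89 ± 0.72 SE, adjusted P value = 0.467).

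Of the 6 glycogen synthesis genes, 1 was lower in KO_PBS and none higher. Pgm1, which interconverts glucose 1-phosphate and glucose 6-phosphate and so serves both directions, measured 1066, 1453, 1177 and 1269 CPM in WT_PBS, 1114, 1481, 1636 and 1123 in WT_ASO, 538, 751, 849.6 and 848 in KO_PBS and 1037, 917, 1160 and 913 in KO_ASO. It fell to 60.1% (log2FC -0.73 ± 0.16 SE, adjusted P value = 0.00676), with KO_PBS below every other group. Gys1, muscle glycogen synthase, measured 846, 687, 986 and 815 CPM in WT_PBS, 924, 800.0, 852 and 789 in WT_ASO, 771, 760.2, 839.9 and 664 in KO_PBS and 887, 786, 809.7 and 860.4 in KO_ASO. The groups overlapped, and the 95% interval of its log2FC was -0.34 to 0.07 (log2FC -0.14 ± 0.10 SE, adjusted P value = 0.443); with library totals alone as the scale the log2FC was 0.01. Gyg, glycogenin, which primes the glycogen particle, averaged 367 ± 5.77 CPM in WT_PBS and 301 ± 16.6 CPM in KO_PBS without overlap and missed the threshold (log2FC -0.28 ± 0.11 SE, adjusted P value = 0.0958), and was called with limma-voom (0.0333) and with the compared groups alone (0.0312). Ugp2, which makes UDP-glucose, averaged 1079 ± 170.5 and 993 ± 50.2 CPM (log2FC -0.12 ± 0.15 SE, adjusted P value = 0.662). Gbe1, the branching enzyme, averaged 128 ± 16.5 and 146 ± 4.76 CPM (log2FC 0.18 ± 0.11 SE, adjusted P value = 0.3), and Pgm2 averaged 2.701 ± 0.368 and 3.52 ± 0.493 CPM (log2FC 0.37 ± 0.17 SE, adjusted P value = 0.176).

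Glycogen breakdown held 4 lower genes out of 6, the phosphorylase of muscle and the 3 measured subunits of its kinase. Pygm (ENSMUSG00000032648, chr19:6384399-6398459, plus strand, GRCm38), whose loss causes McArdle disease, measured 8047, 10120, 8514 and 9049 CPM in WT_PBS, 8504, 11510, 11670 and 7939 in WT_ASO, 4188, 5453, 5943 and 5817 in KO_PBS and 7236, 6288, 7774 and 6327 in KO_ASO. It fell to 59.9% in KO_PBS (log2FC -0.74 ± 0.15 SE, adjusted P value = 0.00365), without overlap. Phkg1, the catalytic subunit of the kinase, measured 619, 696, 601 and 614 CPM in WT_PBS, 575, 736, 805 and 669 in WT_ASO, 322, 399, 426 and 439.8 in KO_PBS and 497, 480.5, 607 and 489 in KO_ASO. Its KO_PBS libraries were below the rest, with a level of 62.7% (log2FC -0.67 ± 0.12 SE, adjusted P value = 0.00175). Phkg1 overlaps Chchd2 and Gm42790 on its own strand, and Sumf2 and Zbed5 on the other.

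Phka1, the muscle form of the regulatory alpha subunit, measured 879, 1351, 1011 and 1154 CPM in WT_PBS, 1145, 1591, 1678 and 1061 in WT_ASO, 437, 534, 608 and 896 in KO_PBS and 974, 888, 1148 and 814 in KO_ASO. Replicate 4 of KO_PBS was within the WT_PBS range and the others were below it. Phka1 fell to 56.3% (log2FC -0.83 ± 0.21 SE, adjusted P value = 0.0168), and its adjusted P value was 0.0591 without KO_PBS replicate 1 and 0.056 without WT_PBS replicate 2. Phkb, the beta subunit, measured 438, 571, 441 and 525 CPM in WT_PBS, 526, 711, 543 and 429.8 in WT_ASO, 226, 305, 310.5 and 370.4 in KO_PBS and 496, 458, 504 and 362 in KO_ASO. It fell to 61.4% without overlap (log2FC -0.70 ± 0.16 SE, adjusted P value = 0.0106). Pygl and Pygb, the liver and brain phosphorylases, averaged 1.27 ± 0.217 and 6.87 ± 0.2999 CPM in WT_PBS and did not pass the test (log2FC 0.62 ± 0.32 SE, adjusted P value = 0.225; log2FC 0.13 ± 0.14 SE, adjusted P value = 0.588). Without KO_PBS replicate 4 the log2FC of Pygl was 0.13 ± 0.25 SE. Pygm made up 99.93% ± 0.00754 of the 3 phosphorylases per kilobase in WT_PBS and 99.86% ± 0.0261 in KO_PBS.

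None of the 3 genes that target enzymes to glycogen passed the test in any comparison. Ppp1r3a and Ppp1r3c encode glycogen-targeting subunits of protein phosphatase 1, and Stbd1 a glycogen-binding protein. Ppp1r3a averaged 325 ± 142 CPM in WT_PBS and 226 ± 65.6 CPM in KO_PBS, and Stbd1 70.5 ± 14.3 and 56.8 ± 15.1 CPM. Ppp1r3c ran from 240.5 to 590.4 CPM in WT_PBS, 315.7 to 1305 CPM in WT_ASO, 329.5 to 493.8 CPM in KO_PBS and 308.1 to 857.2 CPM in KO_ASO. The groups overlapped, and the 95% interval of its log2FC in KO_PBS vs WT_PBS was -0.80 to 0.83.

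**Figure D3:**
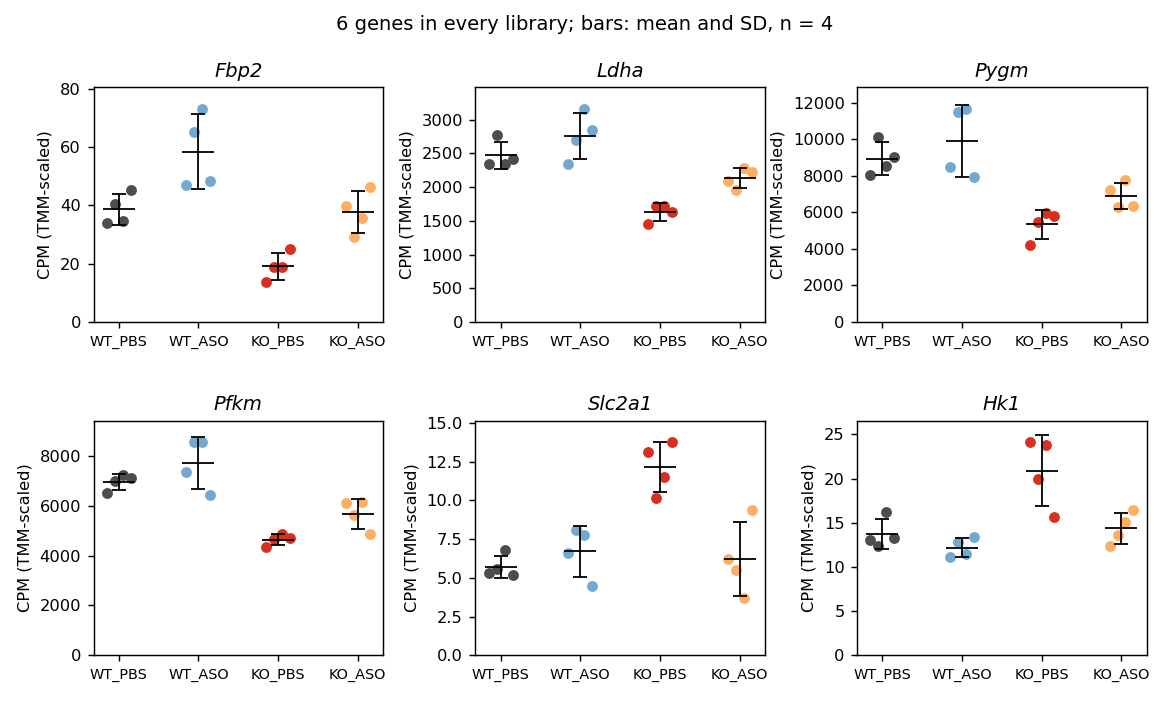
Each panel gives the CPM of 1 gene on an axis from 0, with a point for each of the 4 mice of a group and bars for mean and SD. Fbp2, Ldha, Pygm and Pfkm are lowest in KO_PBS (means of 19.1, 1631, 5350 and 4646 CPM), and Slc2a1 and Hk1 are highest there (12.1 and 20.9 CPM).

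The comparison of KO_ASO with KO_PBS asked how these genes differ when Bin1mck-/- mice received ASO1. Of the 40 entries 4 were DEGs, against 3.64% of all genes tested. Fbp2 and Ldha were higher, against 0.802% of all genes, and Slc2a1 and Hk1 were lower, against 2.83%. These 4 were also DEGs in KO_PBS vs WT_PBS, in the opposite direction. The comparisons share the KO_PBS mice, so the opposite signs are not separate evidence. As given with their values, the calls of Ldha, Slc2a1 and Hk1 were lost without any 1 of several libraries. When the 8 libraries compared were fitted alone, 2 entries were DEGs, Fbp2 and Ugp2, against 2.09% of all genes. DESeq2 called 9, against 7.07% of the genes it gave an adjusted P value, and limma-voom with sample weights 10, against 7.93%.

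The other 11 genes that were lower in KO_PBS had positive log2FC values in KO_ASO vs KO_PBS and did not pass the test. Over the 13 lower genes the log2FC ran from 0.19 (Slc2a4) to 0.98 (Fbp2). These genes were picked for low values in the same KO_PBS libraries that are the reference here, which by itself favours positive values. Phka1 was called without KO_PBS replicate 4 (log2FC 0.85 ± 0.19 SE, adjusted P value = 0.0292), Pfkfb1 without KO_ASO replicate 2 (0.0425), and Phkb without WT_ASO replicate 2 or 4 or KO_ASO replicate 4 (0.0278 to 0.0463). Phkb (log2FC 0.59 ± 0.16 SE, adjusted P value = 0.0591), Pkm (log2FC 0.39 ± 0.12 SE, adjusted P value = 0.0756) and Phkg1 (log2FC 0.39 ± 0.12 SE, adjusted P value = 0.0837) were closest to the threshold, and each was called by DESeq2 (adjusted P values of 0.0156, 0.0208 and 0.0307) and limma-voom (0.00802, 0.0337 and 0.0257), and Pkm and Phkg1 also with the replicate block (0.0332 and 0.0443). DESeq2 also called Tpi1 (0.0386) and Phka1 (0.046), and limma-voom Phka1 (0.0118), Pfkm (0.0286) and Pgm1 (0.0492). In edgeR's test Pygm and Pfkm had log2FC values of 0.37 ± 0.14 SE and 0.29 ± 0.11 SE (adjusted P values of 0.182 and 0.147), and Pygm was called by neither of the other tools. An unadjusted P value under 0.05 was reached by 17 of the 40, against 17.7% of all genes. In 8 of the 40 entries every KO_ASO library was above every KO_PBS library, which held for 4.04% of all genes: Fbp2, Ldha, Pygm, Phkg1, Pgm1, Pkm, Slc2a4 and Ugp2. In 1, Slc2a1, every KO_ASO library was below, which held for 6.34%. Ugp2, which was not lower in KO_PBS, averaged 1333 ± 84.7 CPM in KO_ASO, above both WT_PBS and KO_PBS means (log2FC 0.42 ± 0.15 SE, adjusted P value = 0.139).

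Set against wild type, KO_ASO had no DEG among the 40 entries in edgeR's test. Against WT_PBS, where 0.0401% of all genes were DEGs, 7 entries had an unadjusted P value under 0.05, a level reached by 8.22% of all genes. DESeq2 and limma-voom also called 0 of the 40, against 0.636% and 0.0334% of all genes. The 13 genes that were lower in KO_PBS had log2FC values of -0.37 (Pygm) to -0.03 (Fbp2) in KO_ASO vs WT_PBS, which shares the WT_PBS mice with the comparison that picked them, and that of Fbp2 turned to 0.02 with library totals alone as the scale. Pygm, Pfkm, Gpi1, Eno3 and Ldha lay below WT_PBS in every KO_ASO library, 5 of 40 against 3.01% of all genes, and Gbe1 above in every one, 1 of 40 against 2.38%. Pygm stood at 77.3% of its WT_PBS level (log2FC -0.37 ± 0.14 SE, adjusted P value = 0.536), and Pfkm at 81.6% (log2FC -0.29 ± 0.11 SE, adjusted P value = 0.497).

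Against WT_ASO, the wild type given the same oligonucleotide, 16 of the 40 entries had an unadjusted P value under 0.05, against 15.1% of all genes, and 0 were DEGs, against 0.0735%. DESeq2 called 8 of the 40, each lower in KO_ASO: Aldoa, Eno3, Fbp2, Gpi1, Ldha, Pfkm, Phkg1 and Pygm. It called 419 genes in all, 3.4% of those it gave an adjusted P value, against 11 for edgeR, whose count ran from 2 to 19 without 1 library. In edgeR's test the nearest was Pfkm (log2FC -0.44 ± 0.11 SE, adjusted P value = 0.0945), followed by Gpi1 (log2FC -0.33 ± 0.09 SE, adjusted P value = 0.124) and Ldha (log2FC -0.37 ± 0.10 SE, adjusted P value = 0.135). Every KO_ASO library was below every WT_ASO library for 7 entries, Fbp2, Aldoa, Pygm, Pfkm, Gpi1, Eno3 and Ldha, against 4.0% of all genes, and above for 1, Gbe1, against 2.96%. The median log2FC of the 13 lower genes was -0.39. Limma-voom called 0 of the 40, against 0.0134% of all genes.

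**Figure D4:**
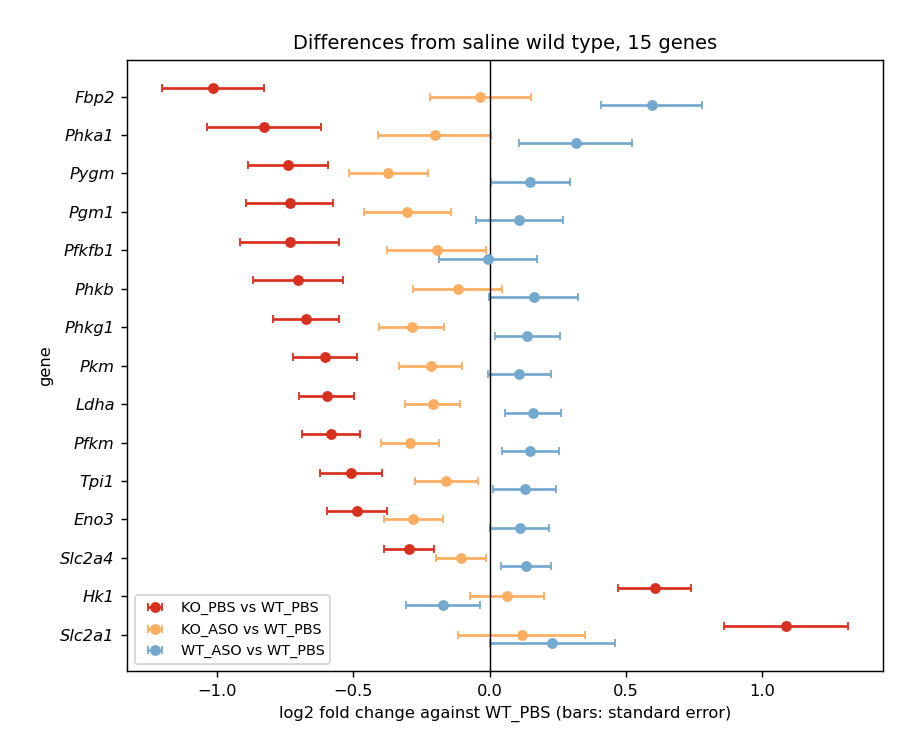
Log2FC against WT_PBS (x axis, points with standard errors) of the 15 genes that were DEGs in KO_PBS vs WT_PBS, for KO_PBS, KO_ASO and WT_ASO. For the 13 lower genes the KO_PBS points run from -1.02 to -0.30 and the KO_ASO points from -0.37 to -0.03, and for Hk1 and Slc2a1 the KO_ASO points are at 0.07 and 0.12. The same 4 WT_PBS mice are the reference of all 3 sets of points.

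In wild type mice ASO1 left no DEG among the 40 entries, where 1 gene, 0.00668% of all genes, was a DEG (4 genes without WT_PBS replicate 2, and 3 without a filter on low counts). An unadjusted P value under 0.05 was reached by 2, Fbp2 and Ppp1r3c, against 6.45% of all genes, and DESeq2 and limma-voom called 0, against 0.234% and 0.00668%. Fbp2 was higher in every WT_ASO library than in any WT_PBS library (log2FC 0.60 ± 0.18 SE, adjusted P value = 0.678), the only entry without overlap, against 1.8% of all genes. Of the 13 genes lower in KO_PBS, 12 had positive log2FC values in WT_ASO vs WT_PBS, which shares the WT_PBS mice with the comparison that picked them. The SDs of WT_ASO exceeded those of WT_PBS for Aldoa (16770 ± 1555 and 19340 ± 4035 CPM) and Pygm (8932 ± 891 and 9908 ± 1961 CPM), with replicates 2 and 3 of WT_ASO above replicates 1 and 4 in both.

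Whether ASO1 acted differently in the 2 genotypes was tested with an interaction term. Of the 40 entries 0 were DEGs, against 0.575% of all genes, and 4 had an unadjusted P value under 0.05, against 12.7%: Slc2a1, Pygl, Aldoc and Pfkfb1. The 86 genes called in all became 23 to 102 without 1 library, with the fewest without WT_PBS replicate 4. Slc2a1 had the smallest P value (log2FC -1.20 ± 0.32 SE, adjusted P value = 0.117). Its adjusted P value was 0.0211 in DESeq2 and 0.0462 in limma-voom, and 0.0273 in edgeR without KO_ASO replicate 4, the library with the highest Slc2a1 value of its group. Slc2a1 was the only 1 of the 40 called by DESeq2, against 2.53% of all genes, so that this count was near the background. It was also the only 1 called by limma-voom, against 0.695%. For Fbp2 the interaction was log2FC 0.39 ± 0.26 SE, adjusted P value = 0.595, and for Ldha log2FC 0.23 ± 0.14 SE, adjusted P value = 0.558.

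The summed level of the 40 entries and that of the fast fibre markers were lowest in the same group. The entries summed to 54470, 64770, 59470 and 60350 CPM in WT_PBS, 56740, 73000, 77580 and 59120 CPM in WT_ASO, 38190, 43610, 44950 and 43600 CPM in KO_PBS and 51280, 47300, 54650 and 50690 CPM in KO_ASO. Every KO_PBS library was below every library of the other groups. The 11 fast fibre markers, which include the myosins, troponins and calcium pump of fast fibres, summed to 155200 to 184600 CPM in WT_PBS, 165000 to 216700 CPM in WT_ASO, 105900 to 133300 CPM in KO_PBS and 132800 to 150800 CPM in KO_ASO. Of the 11, 5 were lower in KO_PBS than in WT_PBS (Tnnt3, Tnni2, Tnnc2, Atp2a1 and Pvalb), against 5.12% of all genes. In KO_ASO vs KO_PBS 0 of the 11 passed edgeR's test, where 0.802% of all genes were called higher and 2.83% lower. The median log2FC of the 11 was 0.27 there.

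The ratio of the 2 sums was 0.368 ± 0.0196 in WT_PBS, 0.360 ± 0.0163 in WT_ASO, 0.346 ± 0.0138 in KO_PBS and 0.356 ± 0.0113 in KO_ASO (SD, n = 4 each). These ratios overlapped, running from 0.351 to 0.388 in WT_PBS and from 0.327 to 0.361 in KO_PBS. The sum of the entries is carried by its most abundant genes, Aldoa, Pygm, Eno3 and Pfkm, of which Aldoa was not a DEG. The median log2FC in KO_PBS vs WT_PBS was -0.40 over the 11 fast fibre markers and -0.30 over the 40 entries. It was -0.67 over the 13 lower entries, which were picked for low KO_PBS values. Set against the 6 general myofibre markers, the sum of the 40 entries was 0.630 ± 0.0385 in WT_PBS, 0.501 ± 0.0429 in KO_PBS and 0.572 ± 0.0269 in KO_ASO. Here the highest KO_PBS ratio, 0.536, was below the lowest WT_PBS ratio, 0.589. The sum of the 6 markers averaged 95220 CPM in WT_PBS and 85040 CPM in KO_PBS. Des, one of those 6, averaged 2837 and 4768 CPM in these groups and rose in KO_PBS (log2FC 0.75 ± 0.10 SE, adjusted P value = 0.000118). It fell in KO_ASO relative to KO_PBS (log2FC -0.595 ± 0.097 SE, adjusted P value = 0.00303). Slow fibre markers summed to 164.0 to 350.8 CPM in WT_PBS, 264.3 to 487.1 CPM in KO_PBS and 274.7 to 746.5 CPM in KO_ASO. Of these, 2 of 8 were higher in KO_PBS than in WT_PBS, against 7.43% of all genes. Their median log2FC was -0.04 in KO_ASO vs KO_PBS and 1.53 in KO_ASO vs WT_PBS, with 0 DEGs in either. Fibroblast markers summed to 726.1 to 989.9, 967.3 to 1691 and 383.1 to 1303 CPM in the same groups. Of these, 2 of 4 were higher in KO_PBS, and 1 was lower in KO_ASO than in KO_PBS, against 2.83% of all genes. Endothelial, adipocyte, erythroid, Schwann cell and neutrophil markers held 0 DEGs in KO_PBS vs WT_PBS, though only 1 of the 2 neutrophil markers was tested. Adipocyte markers summed to 6.845 to 11.88 CPM in WT_PBS and 1.654 to 66.89 CPM in KO_PBS. Neutrophil markers summed to 0.0251 to 0.41 CPM and 0.317 to 5.23 CPM, and both sums were highest in KO_PBS replicate 4. Both satellite cell markers were lower (4.77 to 6.44 CPM in WT_PBS and 1.76 to 2.93 CPM in KO_PBS), against 5.12% of all genes. Each list was detected, and only S100a8, a neutrophil gene, was at 0 in some library. The part of fibre or cell composition in the lower glycolysis and glycogen genes was not tested beyond these ratios.

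**Figure D5:**
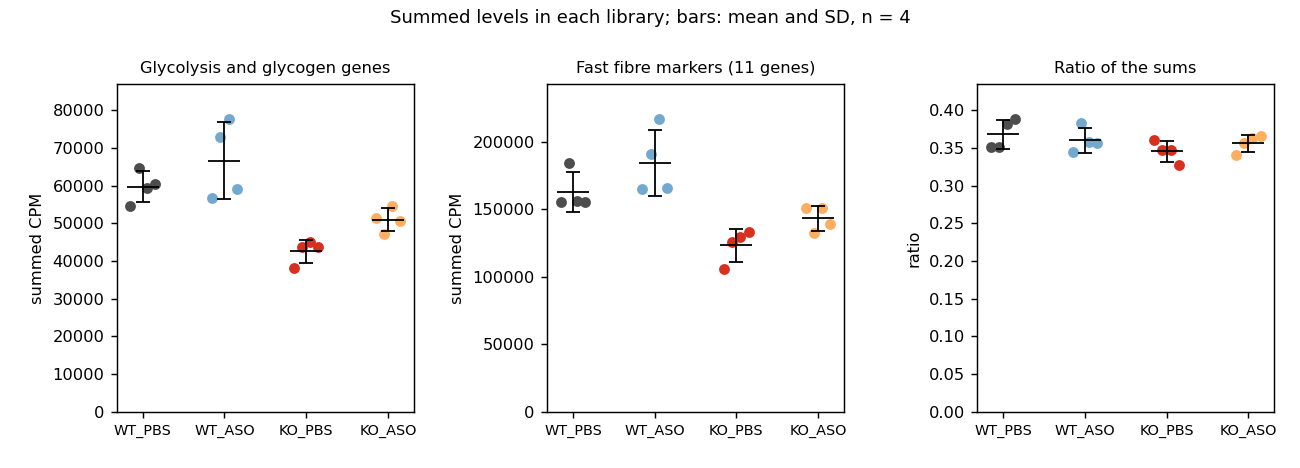
Points are libraries, and bars give mean and SD over the 4 mice of a group; axes start at 0. The left panel sums the 40 gene entries and the middle panel the 11 fast fibre markers, in CPM, and both are lowest in KO_PBS. The right panel gives the ratio of the 2 sums, with group means between 0.346 and 0.368 and overlapping ranges.

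Of 53 further genes of glucose and glycogen metabolism, 46 were tested, and 4 were higher and 7 lower in KO_PBS than in WT_PBS, against 7.43% and 5.12% of all genes, so that the number of higher genes was near the background. The lower genes were Bpgm, which makes 2,3-bisphosphoglycerate (log2FC -0.64 ± 0.09 SE, adjusted P value = 0.000298), Tigar, a fructose bisphosphatase (log2FC -0.98 ± 0.16 SE, adjusted P value = 0.000981), Pgm2l1, which makes glucose 1,6-bisphosphate (log2FC -0.88 ± 0.18 SE, adjusted P value = 0.00463) and Gpd2, the mitochondrial glycerol-3-phosphate dehydrogenase (log2FC -1.12 ± 0.20 SE, adjusted P value = 0.0018). Slc16a3, the lactate exporter MCT4, also fell (log2FC -0.72 ± 0.21 SE, adjusted P value = 0.034), as did the glucose transporter genes Slc2a3 (log2FC -1.34 ± 0.39 SE, adjusted P value = 0.0329) and Slc2a12 (log2FC -0.44 ± 0.12 SE, adjusted P value = 0.0277). The higher genes were Pdk3, a pyruvate dehydrogenase kinase (log2FC 1.59 ± 0.28 SE, adjusted P value = 0.0017), Eno2, the neuronal enolase (log2FC 1.35 ± 0.26 SE, adjusted P value = 0.00258), Pgm5 (log2FC 1.01 ± 0.17 SE, adjusted P value = 0.00112), a relative of phosphoglucomutase, and Ldhd, the D-lactate dehydrogenase (log2FC 0.36 ± 0.10 SE, adjusted P value = 0.0341).

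In KO_ASO vs KO_PBS, 4 of these 46 were higher, Bpgm, Pgm2l1, Gpd2 and Tigar, with log2FC values of 0.45, 0.71, 0.77 and 0.61, against 0.802% of all genes. Another 3 were lower, against 2.83%, Pdk3 (log2FC -1.21), Ldhd (-0.41) and Hk3, a hexokinase of white blood cells (log2FC -2.56 ± 0.64 SE, adjusted P value = 0.0379). Without KO_PBS replicate 4 Hk3 was not called (log2FC -1.42 ± 0.45 SE, adjusted P value = 0.113). It ran from 0.397 to 2.76 CPM in KO_PBS and stayed under 0.5 CPM in every other library. Among 13 regulators, 1 was higher and 1 lower in KO_PBS, against 7.43% and 5.12% of all genes, which is near the background. Prkaa1, a catalytic subunit of AMP-activated protein kinase, rose in KO_PBS (log2FC 0.93 ± 0.10 SE, adjusted P value = 2.57e-05) and fell in KO_ASO relative to KO_PBS (log2FC -0.73 ± 0.10 SE, adjusted P value = 0.000965). Foxk2, a forkhead factor, was lower in KO_PBS (log2FC -0.35 ± 0.09 SE, adjusted P value = 0.0169). In WT_ASO vs WT_PBS and in KO_ASO against either wild type group, 0 of the 46 and 0 of the 13 were DEGs.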

How the data were processed

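The deposited table holds raw counts by Ensembl gene for each sample, without normalization. Tools named in the submitters' processing notes, with no role, are HTSeq 0.6.1p1, STAR 2.5.3a, Bowtie2 2.2.8 and cutadapt 1.10, on GRCm38. Strand setting, annotation release and the treatment of reads that fit several genes were not given in the sources used here. TRI Reagent served, per the labels, for RNA isolation and a TruSeq Stranded mRNA kit for the libraries. Symbols and coordinates came from GENCODE on GRCm38, which matched all 29730 genes.

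Genes were filtered with filterByExpr by group, scaled by TMM and tested with edgeR 4.0.16 (R 4.3.3) in a robust quasi-likelihood fit that gave each group its own mean over all 16 samples. The 14960 P values of a comparison were adjusted by the Benjamini-Hochberg method, threshold 0.05. SE is the size of the log2FC over the root of its F statistic, and the common biological coefficient of variation was 18.7%. The code was tested on simulated data. Isozyme shares divide CPM by transcript length. Shared 50-base words were counted over annotated transcripts, and overlapping genes are named at a mean of at least 10 counts. Samples are taken as separate mice. Alternatives were RLE scaling, library totals alone, scaling without the 40 entries, no filter, DESeq2 1.42.0, limma 3.58.1 voom with sample weights, the compared groups alone, a replicate block, and each library left out. No published methods of this experiment were used, so the design follows the labels. The members and lists were chosen with earlier results of these data known. Values in every library are given for the 14 DEGs of smallest P value in KO_PBS vs WT_PBS, KO_ASO vs KO_PBS or the interaction, and for Pfkm, Aldoa, Gapdh, Pkm, Ldha, Pygm, Gys1, Ldhb, Hk2 and Slc2a4, and other genes by means, ranges and counts. Promoter windows were read from RefSeq, and Slc2a4 had none.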

Additional observations from a re-analysis of the deposited data

Results flagged for a closer look

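In 8 of the 160 sets of 4 values (40 entries in 4 groups), 1 library stood apart from the other 3 by Dixon's criterion at the 95% level. Chance alone sets apart about 1 set in 20, which is about this number. Pfkl measured 16.7 CPM in WT_PBS replicate 3 and 11.9 to 12.4 CPM in the others. Aldoa measured 11590 CPM in KO_PBS replicate 1 and 13270 to 13490 CPM in the others. In KO_PBS replicate 4, the library with the most macrophage marker RNA, Aldoc measured 0.370 CPM against 0.902 to 0.993 CPM, and Pygl 3.62 CPM against 1.27 to 1.51 CPM. Pygb measured 6.42 CPM in WT_PBS replicate 4 and 6.96 to 7.05 CPM in the others. Phkg1 measured 607.4 CPM in KO_ASO replicate 3 against 480.5 to 497.2 CPM, Gbe1 95.9 CPM in WT_ASO replicate 3 against 130.5 to 134.1 CPM, and Ppp1r3a 323.6 CPM in KO_ASO replicate 4 against 279.2 to 283.6 CPM.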

How the results depend on the processing

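The count of entries called in KO_PBS vs WT_PBS was 14 (library totals alone) to 19 (limma-voom, replicate block) under the other fits, while the calls over all genes, 1878 in edgeR, ran from 1464 (no filter) to 2723 (limma-voom). It was between 12 and 18 without 1 library, lowest without KO_PBS replicate 1. In KO_ASO vs KO_PBS, where edgeR called 4, the count was 9 with DESeq2, 10 with limma-voom, 2 with the compared groups alone, and 1 to 5 without 1 library, with only Fbp2 left without KO_PBS replicate 1, KO_ASO replicate 1 or KO_ASO replicate 3. In KO_ASO vs WT_ASO DESeq2 called 8, against 3.4% of all genes. For the interaction DESeq2 and limma-voom called 1 each, against 2.53% and 0.695% of all genes, and omission of 1 library 0 to 1. Over all genes, KO_ASO vs KO_PBS gave 544 calls, 1056 with DESeq2, 1186 with limma-voom, 300 with the compared groups alone and 208 to 831 without 1 library (208 and 322 without KO_PBS replicates 1 and 4, and 212, 328, 263 and 831 without KO_ASO replicates 1 to 4). KO_PBS vs WT_PBS gave 1878, and 997 without KO_PBS replicate 1 and 1080 without WT_PBS replicate 4. DESeq2 called 33 genes in WT_ASO vs WT_PBS (edgeR 1), 95 in KO_ASO vs WT_PBS (6), 419 in KO_ASO vs WT_ASO (11) and 378 for the interaction (86). Without 1 library edgeR called 4 to 11 in KO_ASO vs WT_PBS (11 without KO_ASO replicate 3), 2 to 19 in KO_ASO vs WT_ASO (19 without KO_PBS replicate 1 or KO_ASO replicate 3, and 2 to 5 in the others but that of WT_ASO replicate 4) and 23 to 102 for the interaction, where 11 of the 16 omissions gave 23 to 51, all but those of WT_PBS replicate 3, WT_ASO replicate 2 or 4, KO_PBS replicate 3 and KO_ASO replicate 4. The cause of these differences was not tested.

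Of 2860 recomputed log2FC values of named genes, 81 changed sign, each of a value that was not called. With library totals alone the log2FC of Gys1 was 0.012 in KO_PBS vs WT_PBS, -0.037 in WT_ASO vs WT_PBS and 0.093 in KO_ASO vs WT_ASO, that of Fbp2 0.023 in KO_ASO vs WT_PBS, that of Slc2a1 0.006 in KO_ASO vs WT_ASO and that of Hk2 -0.048 in the interaction. With limma-voom, Pfkfb1 was at 0.041 and Hk2 at 0.010 in WT_ASO vs WT_PBS, Slc2a1 at -0.071 in KO_ASO vs WT_PBS, and Ldhb at -0.111 and Hk2 at -0.039 in the interaction. Hk2 was at -0.003 with RLE and -0.002 with DESeq2 in the interaction, Gys1 at -0.007 without a filter in KO_ASO vs WT_PBS, and Pfkfb1 at 0.013 with the replicate block in WT_ASO vs WT_PBS.

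Without 1 library, sign changes gave these ranges of log2FC. Hk2 ran from -0.047 to 0.132 in KO_PBS vs WT_PBS, -0.085 to 0.022 in KO_ASO vs KO_PBS, -0.119 to 0.066 in WT_ASO vs WT_PBS, -0.069 to 0.109 in KO_ASO vs WT_PBS, -0.035 to 0.138 in KO_ASO vs WT_ASO and -0.089 to 0.097 in the interaction. Ldhb ran from -0.178 to 0.568, -0.275 to 0.189, -0.768 to 0.187 and -0.209 to 0.537 in the first 4 of these and -0.218 to 0.737 in the interaction. Gys1 ran from -0.069 to 0.104 in WT_ASO vs WT_PBS, -0.078 to 0.095 in KO_ASO vs WT_PBS and -0.039 to 0.039 in KO_ASO vs WT_ASO. Slc2a1 ran from -0.149 to 0.296 in KO_ASO vs WT_PBS and -0.380 to 0.076 in KO_ASO vs WT_ASO. In KO_ASO vs WT_PBS, Fbp2 ran from -0.145 to 0.062 and Hk1 from -0.005 to 0.155; in WT_ASO vs WT_PBS, Pfkfb1 from -0.079 to 0.111 and Pgm1 from -0.002 to 0.193; in KO_ASO vs KO_PBS, Gapdh from -0.180 to 0.099; in the interaction, Aldoa from -0.165 to 0.058 and Slc2a4 from -0.018 to 0.097.

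As shares of counts without length correction, the KO_PBS minus WT_PBS difference was -0.194 percentage points for Pfkm, 0.00346 for Aldoc, 0.101 for Eno1 and 1.30 for Slc2a1; that of Pfkfb3 ran from -8.94 to 4.19 without 1 library. Replicate numbers were not taken to pair the samples in the main fit, and the labels do not say what the numbers stand for. The rule used, that every pair have an r over 0.1, was not met, which does not show that pairing is absent. Deviations of same-numbered samples correlated with r of -0.078 to 0.435 over 24 pairs, 11 of them over 0.1. The median was 0.075 against -0.027 for other pairs, so same-numbered samples were slightly more alike in the median. In all, 2 of 16 samples correlated best with their own number in each other group. With a replicate block, the calls were 19 entries in KO_PBS vs WT_PBS (2322 of all genes), 6 entries in KO_ASO vs KO_PBS (752 of all genes), and 44 genes of all tested in KO_ASO vs WT_ASO. Low counts, as for Slc2a1, Aldoc and Pgam1, limit precision, and intervals cover the spread between these samples only.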
